A study of Mus musculus with 24 samples.

Results

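Several gene families known for their expression in germ cells and early embryos are present in the mouse genome as tandem copies. The multicopy families described here are the oogenesins (Oog) and the other PRAME relatives (Pramel and Pramef), the oocyte homeobox genes (Obox), Tcl1 with its Tcl1b copies, and the oocyte Fbxw genes numbered 13 to 29. Members were the rows of the RNA-seq table whose gene name belongs to these series, which gave 40 of the 16572 gene names. They comprised 4 Oog, 4 Pramel, 6 Pramef, 5 Obox, 6 Tcl1 and 15 Fbxw genes, each with 1 row and each annotated as protein coding. The rule used names only and no measured value, but it was set with earlier results of these data known.

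RNA was sequenced from oocytes of class IV (60 to 70 µm in the sample labels, the largest size class) that came from dissociated ovaries taken at day 7 after birth and grown without follicles. The labels give 60 to 70 µm for both groups, whereas the study's text gives a smaller class IV range for 20% O2. The strain is spelled C57BL/6 Barb in the labels and C57BL6/Babr in the study's text, and the methods describe a C57 Black6 background bred with SV129. Oocytes grown in 5% O2 (IV 5% O2) were collected after 9 days of culture, and oocytes grown in 20% O2 (IV 20% O2) after 14 days, with no drug in either group, and medium was changed more often in 5% O2, so that oxygen, culture time, medium changes and any difference in oocyte size cannot be told apart. There were 2 libraries per condition, from pooled oocytes, and the table holds 1 value per gene and condition. Hence no SD and no p-value is given, and no value could be checked between replicates.

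PRAME relatives are leucine-rich repeat proteins, some of which act as substrate receptors of cullin ubiquitin ligases. OBOX proteins are homeodomain transcription factors that are deposited in the egg and take part in activating the embryonic genome. TCL1 binds and co-activates AKT kinases, and F-box proteins with WD40 repeats, the FBXW class, choose the targets of SCF ubiquitin ligases built on SKP1, CUL1 and RBX1. Some copies of one family resemble each other so closely that a read can match more than 1 of them, whereas others do not. The coding sequences below are stretches in which the genes shown differ most from a reference gene, apart from pairs chosen to be the same.

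The coding sequences of the 14 Fbxw genes on chromosome 9 were 79.1% to 99.1% identical to each other, with a median of 84.0% over 91 pairs. Fbxw14 and Fbxw28 were the closest pair at 99.1%, and Fbxw22 was next to them at 92.6% identity to Fbxw14. Stretches of 90 bases within the last coding exon are shown for 7 of the genes, with bases that differ from Fbxw14 in capitals, because these genes include the lowest and the highest differences of the family. Of the stretches that are the same in Fbxw14 and Fbxw28, it is the one in which the other genes differ most. They lie on the minus strand of GRCm38 at chr9:109271200-109271289 (Fbxw14), chr9:109323309-109323398 (Fbxw28), chr9:109378817-109378906 (Fbxw22), chr9:109217506-109217595 (Fbxw20), chr9:109478645-109478734 (Fbxw19), chr9:109432412-109432501 (Fbxw16) and chr9:109601190-109601279 (Fbxw24), and are written 5′ to 3′ along the coding strand.
Fbxw14: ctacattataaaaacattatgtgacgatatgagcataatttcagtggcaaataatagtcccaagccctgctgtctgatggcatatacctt
Fbxw28: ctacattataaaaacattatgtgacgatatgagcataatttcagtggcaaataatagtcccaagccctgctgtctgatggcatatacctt
Fbxw22: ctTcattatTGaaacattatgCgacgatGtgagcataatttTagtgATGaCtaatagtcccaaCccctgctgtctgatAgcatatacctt
Fbxw20: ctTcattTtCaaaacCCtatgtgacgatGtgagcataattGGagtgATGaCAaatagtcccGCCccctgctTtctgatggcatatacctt
Fbxw19: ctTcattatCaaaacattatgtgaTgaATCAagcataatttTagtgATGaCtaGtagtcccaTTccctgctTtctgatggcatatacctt
Fbxw16: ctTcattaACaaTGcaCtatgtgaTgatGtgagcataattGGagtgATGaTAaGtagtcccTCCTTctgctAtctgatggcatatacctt
Fbxw24: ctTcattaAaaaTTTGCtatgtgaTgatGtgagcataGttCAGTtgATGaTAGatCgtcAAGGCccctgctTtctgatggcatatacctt
Fbxw14 and Fbxw28 do not differ in this stretch, whereas Fbxw22 differs from Fbxw14 at 12 of the 90 bases and Fbxw24 at 27.

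Among the Oog genes, identity of the coding sequence was lower, from 73.8% to 80.5% over 6 pairs, and Oog1 and Oog3 formed the closest pair. The stretch of 90 coding bases with the most differences from Oog1 is shown for the 4 genes, again within the last coding exon and with bases that differ from Oog1 in capitals. It lies on the plus strand at chr12:87608438-87608527 for Oog1 and chr4:144196452-144196541 for Oog2, and on the minus strand at chr4:144157912-144158001 for Oog3 and chr4:143437507-143437596 for Oog4.
Oog1: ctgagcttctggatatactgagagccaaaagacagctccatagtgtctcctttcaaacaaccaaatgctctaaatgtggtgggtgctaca
Oog2: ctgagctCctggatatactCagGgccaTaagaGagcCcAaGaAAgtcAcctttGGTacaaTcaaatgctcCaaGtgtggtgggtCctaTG
Oog3: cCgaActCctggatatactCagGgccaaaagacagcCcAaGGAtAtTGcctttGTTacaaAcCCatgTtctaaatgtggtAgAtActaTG
Oog4: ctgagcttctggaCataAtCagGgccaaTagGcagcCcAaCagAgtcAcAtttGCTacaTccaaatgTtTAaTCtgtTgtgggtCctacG
A read from this stretch separates the 4 genes from each other by 19 to 29 bases.

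Obox genes were the most alike as a family, with 92.9% to 98.5% coding identity over 10 pairs. A stretch of 90 bases from the first coding exon is shown for the 5 genes, with bases that differ from Obox1 in capitals, chosen like that of the Fbxw genes as a stretch that is the same in Obox1 and Obox2. It lies at chr7:15555164-15555253 for Obox1, chr7:15396847-15396936 for Obox2, chr7:15757539-15757628 for Obox5 and chr7:14664039-14664128 for Obox7 on the plus strand, and at chr7:15627247-15627336 for Obox3 on the minus strand.
Obox1: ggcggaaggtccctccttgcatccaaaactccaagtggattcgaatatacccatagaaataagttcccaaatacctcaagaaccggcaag
Obox2: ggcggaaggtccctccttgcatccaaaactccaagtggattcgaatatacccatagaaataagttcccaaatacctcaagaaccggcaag
Obox5: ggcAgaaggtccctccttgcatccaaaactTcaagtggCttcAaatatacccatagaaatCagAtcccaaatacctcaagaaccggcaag
Obox7: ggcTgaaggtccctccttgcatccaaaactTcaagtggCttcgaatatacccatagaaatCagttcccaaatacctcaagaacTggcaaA
Obox3: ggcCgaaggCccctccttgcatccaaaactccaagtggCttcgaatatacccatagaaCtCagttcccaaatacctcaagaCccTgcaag
The other 3 genes differ from Obox1 at 6 or 7 of these bases.

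Levels are given as RPM (reads of a gene per 1e6 reads of the column). The table is labelled RPKM and the methods describe a correction for length, but 1 read was worth the same in genes of every length, so values were read as RPM and divided by exon length here where levels are compared between genes. Reads are the whole reads recovered from the deposited values. From the value of 1 read, the column of IV 5% O2 held 132185258 reads and that of IV 20% O2 40875359 reads, 3.23 times fewer. A count of 0 allowed up to 3 reads, or 0.0227 RPM at 5% O2 and 0.0734 RPM at 20% O2. A difference is the log2(RPM + 1) of IV 5% O2 less that of IV 20% O2, and brackets hold exact 95% Clopper-Pearson intervals of the split of a gene's reads between the columns, which cover counting error only. The added 1 RPM makes the difference of a gene near 1 RPM smaller than that of its reads. The 14704 genes whose mean reached 1 RPM had a median difference of 0.26, and members are also compared with this median gene. In a bulk sample, fewer cells of a type and less RNA per cell cannot be told apart. All 10 oocyte markers were detected in both columns, with summed levels of 9360 RPM at 5% O2 and 13137 RPM at 20% O2, and 2 of the 10 were higher in IV 5% O2. Theca and stroma markers summed to 31.0 RPM and 2.67 RPM, with 6 of 6 higher in IV 5% O2 and Col1a2 and Vim without reads in IV 20% O2. Summed granulosa markers were 28.5 RPM and 23.4 RPM (3 of 4 higher in IV 5% O2, Fshr without reads in IV 5% O2 and Inha without reads in IV 20% O2), macrophage markers 16.5 RPM and 21.1 RPM (1 of 2 higher), and endothelial markers 61.0 RPM and 36.1 RPM (3 of 3 higher, Kdr without reads in IV 20% O2). The part of these cell types and of depth in the differences below was not tested.

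Together the 40 members took 10262 RPM at 5% O2 and 10712 RPM at 20% O2, so their combined level was nearly equal while single members differed widely. Of the 39 members whose mean reached 1 RPM, 23 were higher in IV 5% O2, or 59.0%, where 62.6% of all genes were higher, and 16 were lower, where 37.4% of all genes were lower. Obox3 and Pramel5, both among the 23, reached this mean only through IV 5% O2. Oog3, Oog4 and Obox5 were at least 2-fold higher in IV 5% O2, which is 7.69% of the members against 18.7% of all genes tested. Oog1, Pramef17, Fbxw14, Fbxw28, Fbxw19 and Fbxw20 were at least 2-fold lower, which is 15.4% of the members against 9.22% of all genes tested. In either direction 9 members were at least 2-fold apart, and 27.9% of all genes were. The median member difference was 0.13, and 28 of the 39 members lay below the median gene. The split moved with the scaling of the columns: 10 members were higher and 29 lower under median-ratio scaling (48.7% of all genes higher), and 13 were higher and 26 lower under quantile normalization (52.6% of all genes higher). Under both, Oog3 was the only member at least 2-fold higher, while 8 and 7 members were at least 2-fold lower, with Fbxw18 added under both and Fbxw22 under median-ratio scaling. Fbxw23, Obox6, Obox8, Pramel3 and Pramel6, which the annotation also lists, are not analysed here.

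**Figure D1:**
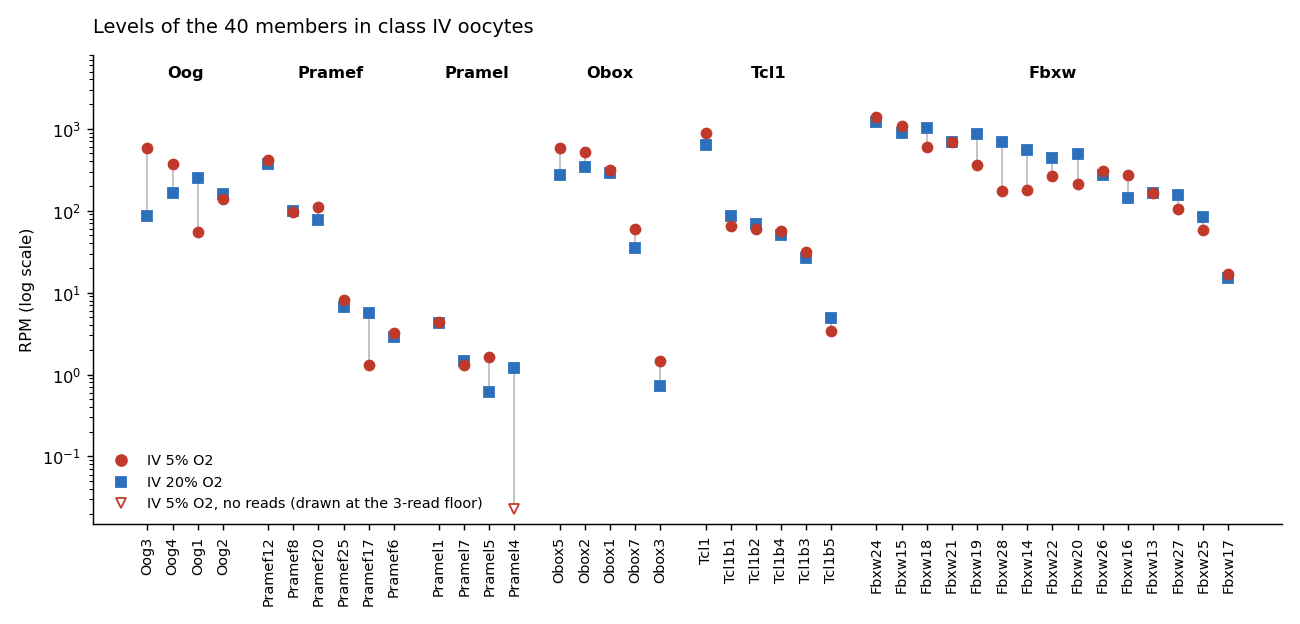
Level of each of the 40 members in RPM (vertical axis, log scale) in IV 5% O2 (circles) and IV 20% O2 (squares), by family and in order of mean level; a grey line joins the values of a gene, and the open triangle is Pramel4, which had no reads in IV 5% O2 and is drawn at the 3-read floor of 0.0227 RPM. The 15 Fbxw genes reach up to 1380 RPM, whereas the Pramel genes stay under 5 RPM.

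The Oog genes differed most within a family, with 2 genes higher and 2 lower in IV 5% O2. These genes encode PRAME relatives first described in mouse oocytes. Oog3 had 77575 reads (587 RPM) in IV 5% O2 and 3507 reads (85.8 RPM) in IV 20% O2, and its log2 difference of 2.76 (2.71 to 2.81) was the highest of all members. Oog4 had 49674 reads (376 RPM) in IV 5% O2 and 6642 reads (162 RPM) in IV 20% O2, a difference of 1.20 (1.17 to 1.24). Oog1 went the other way, with 7275 reads (55.0 RPM) in IV 5% O2 and 10269 reads (251 RPM) in IV 20% O2, a difference of -2.17 (-2.21 to -2.13), the lowest of all members. Oog2 differed little, with 140 RPM at 5% O2 and 160 RPM at 20% O2, a difference of -0.19 (-0.23 to -0.15). Oog3 and Oog4 were thus above the median gene, by 2.50 and 0.95, and Oog1 and Oog2 below it, by -2.43 and -0.45.

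Per kilobase of exon, Oog3 stood highest of the 4 in IV 5% O2 at 315 RPM per kb, ahead of Oog4 at 190, Oog2 at 56.6 and Oog1 at 22.5 RPM per kb. In IV 20% O2 the order was Oog1 at 102.5, Oog4 at 82.0, Oog2 at 64.5 and Oog3 at 46.0 RPM per kb. Oog3 and Oog1, the first and the last in one condition, had exchanged ends in the other. The share of Oog3 in the family's reads was 50.7% in IV 5% O2 and 13.01% in IV 20% O2, and that of Oog1 was 4.75% and 38.1%. The family's sum was 1158 RPM at 5% O2 and 660 RPM at 20% O2, a log2 ratio of 0.81, which without Oog3 was -0.01.

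Sequence that occurs more than once in the genome was very unequal among these 4 genes. Exons were cut into overlapping windows of 100 bases at steps of 10 bases, and a window found at 2 or more places in the chromosomes is termed repeated. Oog1 had 75.3% of its windows repeated, Oog2 22.9%, Oog3 13.3% and Oog4 none. With up to 2 mismatches allowed, the shares were 98.6% for Oog1, 67.3% for Oog2, 26.0% for Oog3 and 0% for Oog4. Of the 219 windows of Oog1, 163 were also in Gm2042 and 60 in Gm10436, both on chromosome 12, and 11 in Gm13023 and 5 in C87977 on chromosome 4. Gm2042, like Oog1, was lower in IV 5% O2, at 77.5 RPM against 318 RPM (difference -2.02), and Gm10436 had 132 RPM against 238 RPM (-0.84). Gm13023 and C87977, which share few windows with Oog1, were higher in IV 5% O2, at 487 RPM against 214 RPM (1.18) and at 377 RPM against 210 RPM (0.85). Summed over Oog1 and these 4 rows, the level was 1129 RPM at 5% O2 and 1231 RPM at 20% O2, a log2 ratio of -0.13 (-0.14 to -0.11). The largest parts of this sum in IV 5% O2 were Gm13023 and C87977. It therefore does not describe Oog1 with its closest copies alone. Oog2 shared 40 windows with Gm13084, and both together had a log2 ratio of -0.34. The repeated windows of Oog3 lay in a gene outside the table, which is not analysed here.

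Starts of the 4 Oog genes were also alike: over the RefSeq promoters of GRCm38, 300 bases each from 250 bases before the start to 50 bases after it, identity ran from 74.4% (Oog1 and Oog2) to 83.6% (Oog1 and Oog4). A promoter was found for 36 of the 40 members. They were searched on both strands for TAATTA or TAATTG, the element bound by the oocyte homeobox factor NOBOX, which was itself at 496 RPM at 5% O2 and 271 RPM at 20% O2. At least 1 match was present in 12.4% of all 32851 promoters and in 3 of the 36, those of Oog3, Oog4 and Pramef12. The E-box CANNTG, which can overlap the other motif, was present in 72.3% of all promoters and in 34 of the 36, all but Obox3 and Pramef20. The 250 bases before the start are shown for Oog1 (chr12:87602415-87602664, plus strand), Oog3 (chr4:144162652-144162901, minus strand) and Oog4 (chr4:143450325-143450574, minus strand), the genes with the lowest and the highest differences, with matches to TAATTA or TAATTG on either strand in capitals.
Oog1: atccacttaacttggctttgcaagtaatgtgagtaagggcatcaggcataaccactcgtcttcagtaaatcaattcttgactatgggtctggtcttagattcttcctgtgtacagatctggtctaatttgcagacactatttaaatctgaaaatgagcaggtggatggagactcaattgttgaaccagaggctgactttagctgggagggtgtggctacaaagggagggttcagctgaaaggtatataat
Oog3: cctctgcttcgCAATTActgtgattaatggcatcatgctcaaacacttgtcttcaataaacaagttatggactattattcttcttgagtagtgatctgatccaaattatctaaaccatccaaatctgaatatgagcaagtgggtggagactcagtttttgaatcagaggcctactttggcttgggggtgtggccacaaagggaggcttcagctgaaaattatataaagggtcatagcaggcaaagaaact
Oog4: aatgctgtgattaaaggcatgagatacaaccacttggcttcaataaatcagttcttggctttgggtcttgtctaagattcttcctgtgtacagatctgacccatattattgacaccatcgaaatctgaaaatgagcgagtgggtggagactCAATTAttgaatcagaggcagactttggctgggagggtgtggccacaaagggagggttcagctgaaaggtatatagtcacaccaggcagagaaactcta
A match is a description of the letters and not a binding site, and its part in the differences was not tested.

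The other PRAME relatives were mostly of low level and close to each other between conditions. Pramef12, a PRAME relative known from spermatogonial stem cells, was the highest, with 54823 reads (415 RPM) in IV 5% O2 and 15379 reads (376 RPM) in IV 20% O2, a difference of 0.14 (0.11 to 0.17) that turned to -0.18 under median-ratio scaling and -0.06 under quantile normalization. Pramef20 had 14855 reads (112 RPM) and 3181 reads (77.8 RPM), a difference of 0.52 (0.47 to 0.58). Pramef8 had 12789 reads (96.8 RPM) and 4066 reads (99.5 RPM), a difference of -0.04 whose interval (-0.09 to 0.01) included 0. None of these 3 genes had a window elsewhere in the genome with up to 2 mismatches, and their conditions lay within 1.5-fold of each other.

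Below 10 RPM, Pramef17 and Pramel4 stood out. Pramef17 had 171 reads (1.29 RPM) in IV 5% O2 and 231 reads (5.65 RPM) in IV 20% O2, a difference of -1.54 (-1.73 to -1.33). Pramel4 had no reads in IV 5% O2 and 49 reads (1.20 RPM) in IV 20% O2. Against the floor of 3 reads, and with the 49 reads taken as counted, its level was at least 52.8-fold lower in IV 5% O2, and the Clopper-Pearson limit of the log2 read ratio, which allows for error in both counts, was -5.37. These are also the PRAME relatives other than Oog1 with the most repeated sequence: 89.9% of the windows of Pramel4 and 60.5% of those of Pramef17 were repeated. The 186 repeated windows of Pramel4 all lay in Gm13102, which had 0 reads in IV 5% O2 and 56 reads in IV 20% O2. Likewise the 89 repeated windows of Pramef17 lay in Gm13128, with 1 read in IV 5% O2 and 110 reads in IV 20% O2. The near-identical copies of both genes thus had the same direction as the genes themselves. A gene and its copy may draw on the same reads, so their directions are not independent. Among other genes with 50% or more repeated windows, 63.1% were at least 2-fold lower in IV 5% O2.

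Pramef25, with 25% of its windows repeated, had 8.04 RPM and 6.61 RPM, a difference of 0.25 (0.08 to 0.42), and of -0.03 under median-ratio scaling. Of the rows that share its windows, Gm13040 had 27 reads in IV 5% O2 and 253 reads in IV 20% O2, and Gm13057 had 20 reads and 250 reads. Both of those rows had 100% of their windows repeated. The other 3 rows were lower in IV 5% O2 too, with 480 reads and 296 reads for BC080695 (difference -0.83), 469 reads and 241 reads for Gm13119 (-0.60), and 0 reads and 48 reads for Gm13101. Summed over Pramef25 and these 5 rows, the level was 15.6 RPM at 5% O2 and 33.2 RPM at 20% O2, a log2 ratio of -1.09 (-1.19 to -0.99), opposite in direction to Pramef25 alone. Pramef6 had 3.24 RPM at 5% O2 and 2.86 RPM at 20% O2, a difference of 0.13 (-0.09 to 0.36) that was -0.11 under both scalings. Pramel1, the highest Pramel gene, had 576 reads (4.36 RPM) and 172 reads (4.21 RPM), a difference of 0.04 (-0.16 to 0.24) that was -0.22 under median-ratio scaling and -0.17 under quantile normalization. Pramel5 had 216 reads (1.63 RPM) and 25 reads (0.61 RPM), a difference of 0.71 (0.44 to 0.94), opposite to its closest relative Pramel4, with which it shares 93.1% of the coding sequence. Pramel7, which maintains naive pluripotency in embryonic stem cells, lies alone on chromosome 2 and had 1.32 RPM and 1.44 RPM, a difference of -0.07 (-0.33 to 0.18).

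By position, 12 of the PRAME relatives lie in a cluster of 1014 kb on chromosome 4, Pramel7 on chromosome 2 and Oog1 on chromosome 12. Within the chromosome 4 cluster 8 of the 11 members tested were higher in IV 5% O2 and 3 lower, with differences from -1.54 (Pramef17) to 2.76 (Oog3) and a median of 0.14, beside 62.6% higher and 37.4% lower among all genes. Pramel5, among the 8, reached the mean of 1 RPM only through IV 5% O2. Under median-ratio scaling 4 of the 11 were higher and 7 lower, with a median of -0.11, and under quantile normalization 5 were higher and 6 lower, with a median of -0.06. The cluster sum was 1746 RPM at 5% O2 and 983 RPM at 20% O2. The Pramef sum was 636 RPM against 569 RPM, a log2 ratio of 0.16 whose sign turned under median-ratio scaling (-0.16) and quantile normalization (-0.04). The Pramel sum was 7.32 RPM against 7.46 RPM, a log2 ratio of -0.03 (-0.22 to 0.16).

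**Figure D2:**
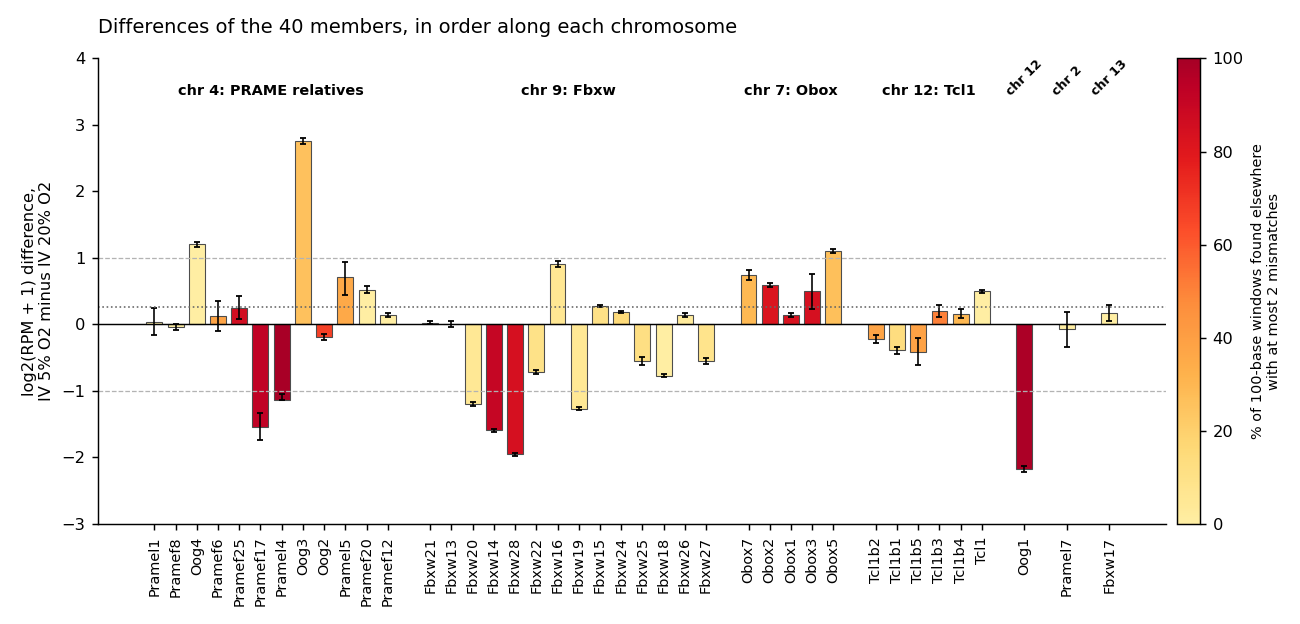
Difference of log2(RPM + 1) between the columns, 5% less 20% O2 (vertical axis), for the 40 members in order along each chromosome; bars are single values, error bars are 95% Clopper-Pearson intervals for counting error, colour is the percentage of 100-base windows found elsewhere with at most 2 mismatches, the dotted line is the median gene at 0.26 and dashed lines mark 2-fold. Oog3 reaches 2.76, and Oog1, Fbxw28, Fbxw14 and Pramef17 lie between -2.17 and -1.54 with at least 84.4% of their windows found elsewhere.

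All 5 Obox genes were higher in IV 5% O2, where 62.6% of all genes tested were higher. Obox3 reached the mean of 1 RPM only through IV 5% O2, so its direction does not add to this count. Obox5 had 78042 reads (590 RPM) in IV 5% O2 and 11246 reads (275 RPM) in IV 20% O2, a difference of 1.10 (1.07 to 1.13), the only Obox gene at least 2-fold apart on this scale. Obox2 had 68819 reads (521 RPM) and 14068 reads (344 RPM), a difference of 0.60 (0.57 to 0.62). Obox1 had 41756 reads (316 RPM) and 11653 reads (285 RPM), a difference of 0.15 (0.12 to 0.18). Obox1 lay below the median gene and turned to -0.17 under median-ratio scaling and -0.11 under quantile normalization, while the other 4 Obox genes kept their sign. Obox7 had 7930 reads (60.0 RPM) and 1447 reads (35.4 RPM), a difference of 0.74 (0.67 to 0.82). Obox3 was the lowest, with 194 reads (1.47 RPM) in IV 5% O2 and 30 reads (0.73 RPM) in IV 20% O2, a difference of 0.51 (0.24 to 0.75). In both conditions the family was made up of Obox5, Obox2 and Obox1, with Obox3, a gene known from the embryo, at the bottom.

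Obox1 and Obox2 share sequence with each other more than with any other member. Of their windows 50.8% and 48.7% were repeated, all of them in the other gene of the pair, and their annotated exons overlap over 59 bases on the same strand. RefSeq promoters of Obox1 and Obox2 were 100% identical over 203 aligned bases. Summed over the pair, the level was 837 RPM at 5% O2 and 629 RPM at 20% O2, a log2 ratio of 0.41 (0.39 to 0.43). Obox5 and Obox7 had 2.34% and 2.56% of their windows repeated, and 26.3% and 29.1% with up to 2 mismatches. Obox3 had 35.6% repeated and 84.5% with up to 2 mismatches. Its repeated windows lay in genes outside the table or in no annotated exon. The part of this in the low level of Obox3 was not tested. Per kilobase, Obox2 led in both conditions, at 316 RPM per kb at 5% O2 and 209 RPM per kb at 20% O2, followed by Obox5 at 276 RPM per kb in IV 5% O2 and by Obox1 at 150.0 RPM per kb in IV 20% O2. The family sum was 1488 RPM against 941 RPM, a log2 ratio of 0.66 (0.65 to 0.68). Crx, Crxos and Otx2, homeobox genes listed for comparison, are not analysed here.

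Tcl1 led its family in both conditions and differed in direction from several of its copies. Tcl1 had 116712 reads (883 RPM) in IV 5% O2 and 25564 reads (625 RPM) in IV 20% O2, a difference of 0.50 (0.48 to 0.52). Tcl1b1 had 8599 reads (65.1 RPM) and 3495 reads (85.5 RPM), a difference of -0.39 (-0.45 to -0.33). Tcl1b2 had 7898 reads (59.7 RPM) and 2841 reads (69.5 RPM), a difference of -0.21 (-0.28 to -0.15). These 2 copies were lower in IV 5% O2, as was Tcl1b5 (3.44 RPM and 4.89 RPM, difference -0.41). Tcl1b4 had 57.0 RPM at 5% O2 and 50.9 RPM at 20% O2, a difference of 0.16 (0.09 to 0.23), and Tcl1b3 had 31.0 RPM and 26.8 RPM, a difference of 0.20 (0.11 to 0.30). Both turned negative under median-ratio scaling (-0.15 and -0.10), and Tcl1b4 also under quantile normalization (-0.03). All 5 Tcl1b genes lay below the median gene, and Tcl1 lay above it.

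The 6 genes lie within 76.8 kb on chromosome 12, and no member of this family was 2-fold apart. Tcl1 is only distantly related to the copies, with at most 47.7% coding identity (to Tcl1b1), and had no window elsewhere in the genome, whereas the Tcl1b genes were 70.6% to 86.5% identical to each other. Tcl1b2 and Tcl1b3 shared 9 windows. Per kilobase, Tcl1 made up 72.5% of the family in IV 5% O2 and 62.7% in IV 20% O2. The family sum was 1099 RPM against 863 RPM (log2 ratio 0.35), and without Tcl1 the ratio was -0.14 (-0.17 to -0.10).

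Fbxw genes were the most abundant family, with 5872 RPM at 5% O2 and 7672 RPM at 20% O2, a log2 ratio of the sums of -0.39. Of the 15 genes 8 were lower in IV 5% O2, beside 37.4% of all genes, and 13 of the 15 lay below the median gene. The 4 genes at least 2-fold lower (9.22% of all genes tested were) lie on chromosome 9, which holds 14 of the family within 651 kb. Fbxw28 had 23246 reads (176 RPM) in IV 5% O2 and 27957 reads (684 RPM) in IV 20% O2, a difference of -1.95 (-1.98 to -1.93). Fbxw14 had 23989 reads (181 RPM) and 22438 reads (549 RPM), a difference of -1.59 (-1.62 to -1.57). Fbxw19 had 47194 reads (357 RPM) and 35226 reads (862 RPM), a difference of -1.27 (-1.29 to -1.25). Fbxw20 had 27885 reads (211 RPM) and 19857 reads (486 RPM), a difference of -1.20 (-1.23 to -1.17).

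Lower in IV 5% O2 by less than 2-fold were Fbxw18, Fbxw22, Fbxw27 and Fbxw25. Fbxw18 had 79170 reads (599 RPM) and 41744 reads (1021 RPM), a difference of -0.77 (-0.79 to -0.75). Fbxw22 had 35133 reads (266 RPM) and 17841 reads (436 RPM), a difference of -0.71 (-0.74 to -0.69). Fbxw27 had 105 RPM and 155 RPM (difference -0.55), and Fbxw25 had 57.4 RPM and 84.4 RPM (difference -0.55). With the scalings, Fbxw18 and Fbxw22 came to -1.09 and -1.03 under median-ratio scaling, and to -1.04 and -0.90 under quantile normalization.

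Fbxw24, Fbxw15 and Fbxw21, the 3 Fbxw genes with the most reads in IV 5% O2, differed little between conditions. Fbxw24 had 182365 reads (1380 RPM) in IV 5% O2 and 49668 reads (1215 RPM) in IV 20% O2, a difference of 0.18 (0.17 to 0.20). Fbxw15 had 143043 reads (1082 RPM) and 36586 reads (895 RPM), a difference of 0.27 (0.26 to 0.29). Fbxw21 had 92330 reads (698 RPM) and 28007 reads (685 RPM), a difference of 0.03 (0.01 to 0.05). These 3 genes turned negative under both scalings (-0.14, -0.05 and -0.29 under median-ratio scaling), as did Fbxw26 (305 RPM and 275 RPM, difference 0.15). Fbxw13 had 166 RPM at 5% O2 and 165 RPM at 20% O2, with an interval (-0.03 to 0.05) that included 0 and differences of -0.31 and -0.23 under the scalings. Fbxw16 was the Fbxw gene with the highest difference, with 35854 reads (271 RPM) and 5892 reads (144 RPM), a difference of 0.91 (0.87 to 0.95), and it kept its sign under both scalings (0.59 and 0.67). Fbxw17, which lies alone on chromosome 13 and shares at most 49.9% of its coding sequence with the others (Fbxw20), was the lowest, with 17.1 RPM and 15.0 RPM (difference 0.17, and -0.13 under median-ratio scaling).

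Neighbouring and closely related genes had gaps between their differences that were about as wide as those of other pairs. From the start of the cluster the order is Fbxw21, Fbxw13, Fbxw20, Fbxw14, Fbxw28, Fbxw22, Fbxw16, Fbxw19, Fbxw15, Fbxw24, Fbxw25, Fbxw18, Fbxw26 and Fbxw27. The consecutive genes Fbxw20, Fbxw14, Fbxw28 and Fbxw22 were all lower in IV 5% O2, and the next gene, Fbxw16, was the highest above 0. Over the 13 pairs of neighbours the median gap between differences was 0.73, and over the other 78 pairs it was 0.82. The 4 pairs with at least 90% coding identity had a median gap of 0.82 (0.36 to 1.24), and the 73 pairs under 87% also had a median gap of 0.82 (0.03 to 2.86). Fbxw16 and Fbxw19 are each other's neighbours and share 88.6% of the coding sequence, yet had differences of 0.91 and -1.27, a gap of 2.18. Fbxw25 and Fbxw27, at 89.9% identity, differed by less than 0.01 (0.0038). Promoters of the chromosome 9 genes were 83.1% to 97.7% identical among those with a RefSeq entry, with Fbxw14 and Fbxw28 the closest pair and Fbxw19 at 96.7% to Fbxw28. The members are not independent of each other, and these gaps are a description.

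**Figure D3:**
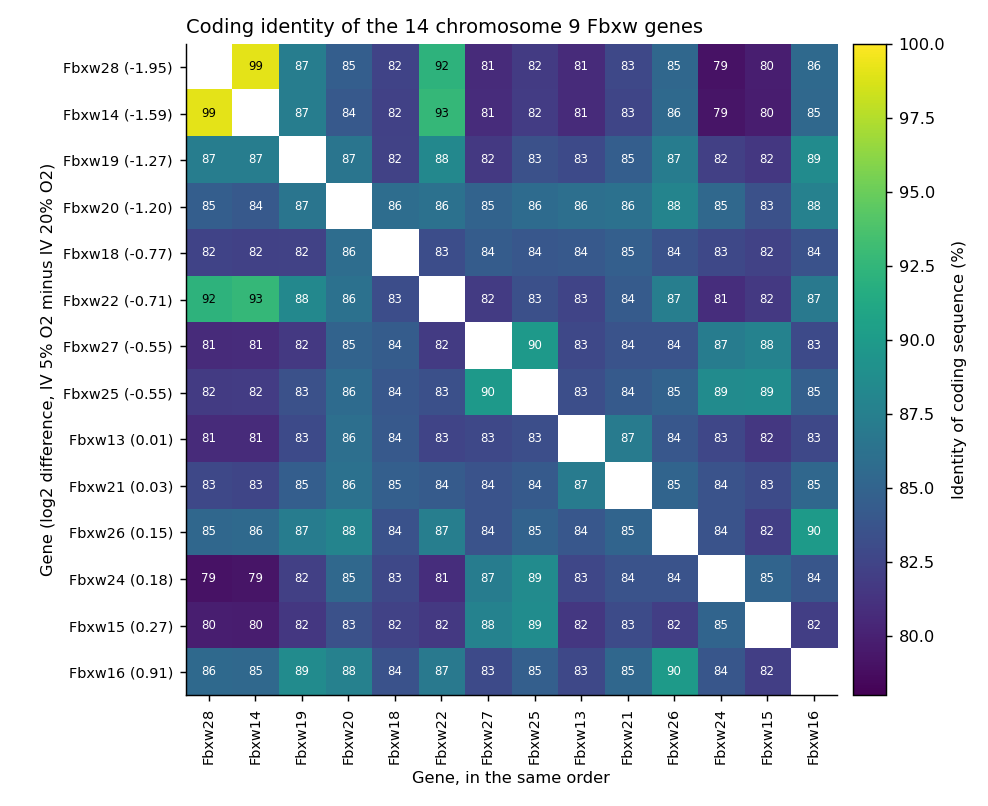
Identity of the coding sequences in percent (colour and number) for each pair of the 14 Fbxw genes on chromosome 9, ordered by the log2 difference IV 5% O2 minus IV 20% O2 that stands beside each name. Fbxw28 and Fbxw14, at the top with -1.95 and -1.59, are 99% identical, and Fbxw16, at the bottom with 0.91, is 89% identical to Fbxw19 with -1.27.

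Shared sequence is not the same for the genes that were lower in IV 5% O2. Fbxw14 and Fbxw28 had 43.6% and 39.6% of their windows repeated, and 90.6% and 84.4% with up to 2 mismatches. The 2 genes together had 357 RPM at 5% O2 and 1233 RPM at 20% O2, a log2 ratio of -1.79 (-1.80 to -1.77). Of the 51 repeated windows of Fbxw14, 37 lay in Fbxw28 and 14 in no annotated exon, and 2 of its windows were also in Fbxw22. With Fbxw22 added, the log2 ratio was -1.42 (-1.44 to -1.41). The part of shared sequence in these differences was not tested. Fbxw20 and Fbxw19, also at least 2-fold lower, had 0% and 0.77% of their windows repeated, and 4.55% and 5.02% with up to 2 mismatches. Fbxw18 had no 100-base window elsewhere within 2 mismatches. Without Fbxw14 and Fbxw28 the family sum kept its direction, with 5515 RPM against 6439 RPM and a log2 ratio of -0.22 (-0.23 to -0.22). The median of the Fbxw genes was -0.55, and it became 0.01 when members with at least 10% repeated windows were left out and -0.27 when members with at least 10% of windows elsewhere within 2 mismatches were left out. Exons of Fbxw15 and Fbxw16 overlap antisense genes over 11.2% and 11.7% of their length. The libraries are strand-specific, but whether strand was used in counting is not given in the sources used here.

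**Figure D4:**
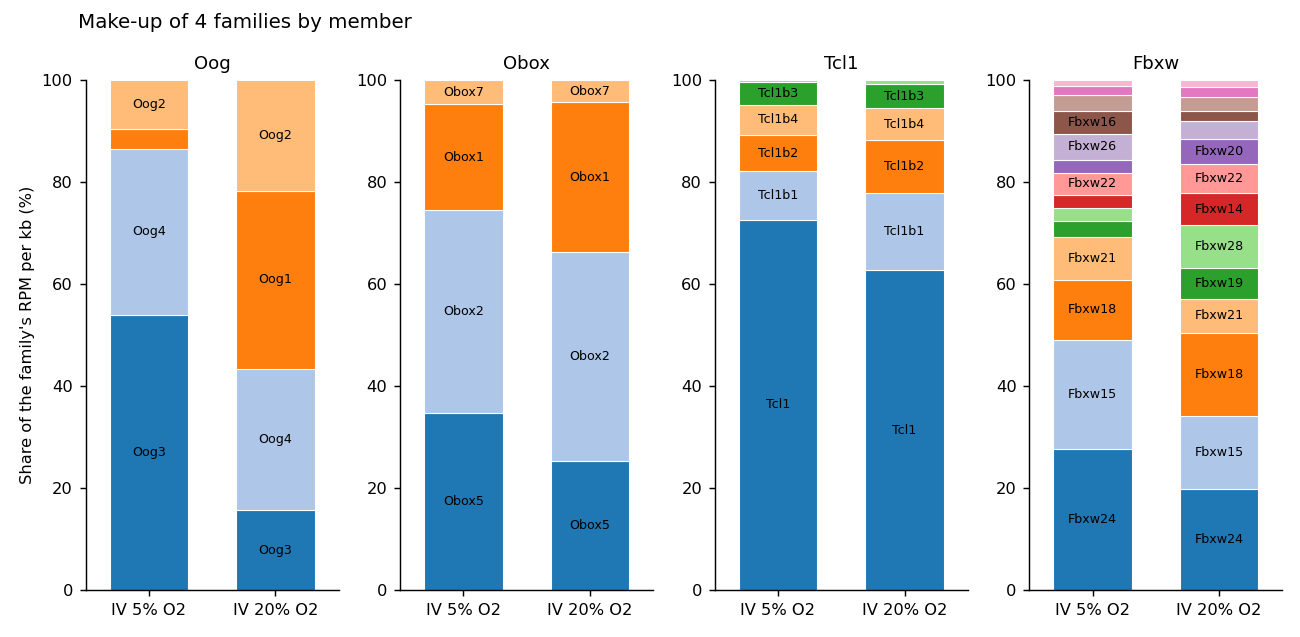
Share of each member in its family's RPM per kilobase of exon (vertical axis, %) in IV 5% O2 and IV 20% O2 for the Oog, Obox, Tcl1 and Fbxw families, single values without error bars; members under 4% carry no name. Oog3 goes from 53.9% in IV 5% O2 to 15.6% in IV 20% O2 and Oog1 from 3.85% to 34.7%, whereas the order of the Obox genes differs only between Obox5 and Obox1.

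Over all genes tested, those with much repeated sequence were lower in IV 5% O2. Among genes that are no members, the median difference was 0.32 in the 11136 genes with no repeated window, 0.18 in the 2445 with under 10%, -0.02 in the 702 with 10% to under 50%, and -1.63 in the 369 with 50% or more. The share at least 2-fold lower was 6.64%, 9.45%, 20.7% and 63.1% in the same order. In the members the medians were 0.04 (17 genes), 0.16 (9 genes), 0.17 (10 genes) and -1.54 (3 genes), and 1, 1, 2 and 2 members were at least 2-fold lower. Members with 50% or more repeated windows were Oog1, Pramef17 and Obox1, of which Obox1 was not lower, and Pramel4 was not tested. Of the 6 members at least 2-fold lower, Fbxw19 and Fbxw20 had less than 1% of their windows repeated. Of the 3 members at least 2-fold higher, Oog4 had none, Obox5 2.34% and Oog3 13.3%. Among the 17 members with under 10% of windows elsewhere within 2 mismatches, 10 were higher and 7 lower, with a median of 0.03, and Oog4 was 2-fold higher and Fbxw19 and Fbxw20 were 2-fold lower.

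**Figure D5:**
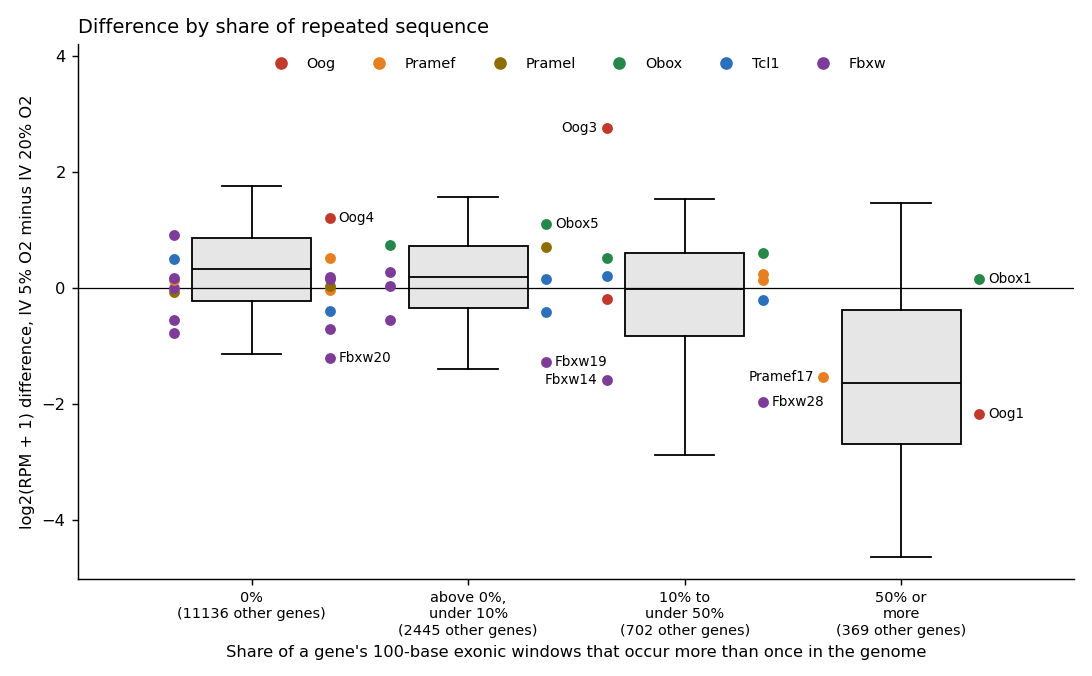
Difference of log2(RPM + 1) between the columns, 5% less 20% O2 (vertical axis), by the share of a gene's 100-base windows that occur more than once (horizontal axis); boxes are genes that are no members (median and quartiles, whiskers from the 5th to the 95th percentile) and points are the 39 members tested, coloured by family. The box of genes with 50% or more repeated windows is centred at -1.63, and Oog1 and Pramef17 lie within its range while Obox1 lies above its box.

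Genes with which the families act, and single-copy relatives, were compared beside them. Akt1 and Akt2 encode kinases that TCL1 binds. Akt1 had 217 RPM at 5% O2 and 79.7 RPM at 20% O2 (difference 1.43), and Akt2 had 90.2 RPM and 41.1 RPM (1.11, and under 2-fold with 0.80 and 0.92 under the scalings). For the SCF subunits, Skp1a, the adaptor, had 1752 RPM and 1088 RPM (0.69), Cul1, the scaffold, 1206 RPM and 670 RPM (0.85), and Rbx1, the RING subunit, 43.1 RPM and 79.0 RPM (-0.86). Thus 4 of these 5 genes were higher in IV 5% O2, beside 62.6% of all genes tested. At least 2-fold higher were 2 of them, beside 18.7% of all genes tested, and only Akt1 under both scalings.

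Of 10 single-copy genes listed, Btrc and 9 Fbxw genes, 9 were in the table and 8 were tested, and 7 of the 8 were higher in IV 5% O2, beside 62.6% of all genes, with a median of 0.40. Under median-ratio scaling 5 of the 8 were higher, with a median of 0.10. Btrc, a substrate receptor of beta-catenin and other phosphoproteins, had 246 RPM and 138 RPM (difference 0.84). Fbxw8 had 225 RPM and 193 RPM, a difference of 0.22 that turned to -0.10 under median-ratio scaling and -0.03 under quantile normalization. Fbxw4 was at least 2-fold apart, with 46.3 RPM and 19.4 RPM (1.21), but not under median-ratio scaling (0.90). The single-copy genes summed to 668 RPM against 506 RPM, a log2 ratio of 0.40, and the multicopy Fbxw genes to -0.39 on the same scale. The 9 oocyte genes Nlrp4a, Nlrp4b, Nlrp4c, Nlrp4e, Nlrp4f, Nlrp9a, Nlrp9b, Nlrp9c and Nlrp14, another multicopy group, had differences from -0.07 to 0.60 with a median of 0.26, the same as all genes, and none was 2-fold apart. Under median-ratio scaling their median was -0.06. Nlrp14, the highest, had 3440 RPM and 3607 RPM (-0.07, and 0.23 under quantile normalization). By their medians, the Obox genes lay above, the Nlrp genes at and the Fbxw genes below the median gene. With 1 value per condition these differences between families were not tested.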

How the data were processed

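RNA-seq libraries of class IV oocytes, grown in either oxygen condition, were analysed. RRBS and PBAT libraries were not analysed here. The authors trimmed reads with Trim Galore (versions 0.2.8 and 0.3.5 in the submitters' processing notes, which do not tie them to a library type), aligned them to GRCm38 (mm10) with TopHat2 2.0.9 and quantified genes over merged exons in SeqMonk. Libraries were strand-specific, and the strand setting of counting is not given in the sources used here. How reads with several matches were treated is also not given in the sources used here. The values deposited are log2 RPM. The table is labelled RPKM and the authors describe correcting for feature length, but the values deposited step by the same amount in all genes and show no such correction. Per-kilobase levels rest on this reading and on exon lengths from GENCODE, whereas the paper describes an annotation of oocyte transcripts. The table has 1 column per condition for 2 libraries, and how the libraries were combined is not given in the sources used here. With the log2 undone, 99.98% of the values of each column lay within 0.1 of a whole read, and genes without reads were listed at 0.9 of a read. Of the value columns, 1 that no sample label matches was not used.

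Where a name had more than 1 row (18 names, no member among them), the row with the highest mean was used. A gene entered the comparison, made on the log2(RPM + 1) scale, if its mean reached 1 RPM, and 2-fold was the limit for counts. The pooled columns allow no test over libraries, so exact 95% Clopper-Pearson intervals of reads are given. They cover counting error only, since each condition has 1 column, and compare the libraries rather than the conditions. The libraries carry no molecular identifiers, so reads copied from 1 molecule may be counted separately, which would make the intervals too narrow. Reads recovered from a column that may combine libraries were treated as its reads. Of 16591 rows, 16572 were matched to GENCODE exons, 16414 of them by coordinates. Windows of 100 bases every 10 bases were searched in 22 chromosome sequences of GRCm38, on both strands. Coding sequences were aligned with mafft 7.526. Promoters came from RefSeq (GRCm38.p6), with 36 of 40 members matched.

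Members and gene lists were chosen with earlier results of these data known. Genes were named by a rule: members with at least 10 RPM in a column, the highest of each family, those at least 2-fold apart with 100 or more reads, those without reads in a column, and, of each comparison list, the highest and those at least 2-fold apart. Other genes, among them the rows that share windows, the lower Pramel, Pramef, Obox and Tcl1b members, Btrc, Cul1 and Rbx1, were chosen after their values were seen. Of the comparison genes, 1 is not reported here. Alternatives were other pseudocounts (0.1 and 5 RPM), median-ratio scaling, quantile normalization, other filters, 50-base windows and subsets of members. The limit of 2 mismatches and the adding of rows that share windows were chosen after seeing the data. Scripts were tested on simulated data. Intervals were computed with scipy 1.17.1, tables with pandas 2.3.3 and numpy 2.4.6, window searches with numba 0.67.0 and figures with matplotlib 3.10.9, in Python 3.11.15.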

Additional observations from a re-analysis of the deposited data

How the results depend on the processing

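No paired analysis was possible because each condition has 1 column for its 2 libraries, and for the same reason no library could be left out. The scaling of the columns moved most values: the median of all genes was 0.26 as deposited, -0.03 under median-ratio scaling and 0.06 under quantile normalization. The cause of the shifts was not tested. Values below are for median-ratio scaling and then quantile normalization. Members at least 2-fold higher numbered 1 and 1. The sums were 0.49 and 0.62 for Oog, -0.35 and -0.45 for Pramel, -0.16 and -0.038 for Pramef, 0.34 and 0.48 for Obox, 0.029 and 0.18 for Tcl1, and -0.71 and -0.68 for Fbxw. The medians were -0.18 and -0.16 for all members, 0.19 and 0.29 for Oog, -0.34 and -0.22 for Tcl1, -0.86 and -0.74 for Fbxw, 0.10 and 0.25 for the single-copy Fbxw genes, -0.058 and 0.090 for the Nlrp genes, -1.76 and -1.83 for members with 50% or more repeated windows, and -0.20 and -0.16 for those with under 10%. Under median-ratio scaling the Pramef median was -0.14 and that of the chromosome 4 cluster -0.11. Single genes that turned in sign were Fbxw15 (-0.046 and -0.12), Fbxw21 (-0.29 and -0.16), Fbxw24 (-0.14 and -0.25), Fbxw26 (-0.17 and -0.094), Obox1 (-0.17 and -0.11), Pramef12 (-0.18 and -0.062), Tcl1b4 (-0.15 and -0.030), Fbxw8 (-0.10 and -0.035), Nlrp9a (-0.19 and -0.11), and, from intervals that included 0 or values near it, Fbxw13 (-0.31 and -0.23), Pramef6 (-0.11 and -0.11), Pramel1 (-0.22 and -0.17) and Fbxw7 (-0.29 and -0.13). Under median-ratio scaling alone these were Fbxw17 (-0.13), Pramef25 (-0.032), Tcl1b3 (-0.10), Nlrp4c (-0.058) and Nlrp9b (-0.027), and under quantile normalization alone Nlrp14 (0.23).

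With under 10% repeated windows, 2 members were at least 2-fold lower, and the medians were 1.20 for Oog (Oog4 alone), 0.92 for Obox, -0.11 for Tcl1 and 0.0060 for Fbxw. With under 10% of windows elsewhere within 2 mismatches, 1 member was at least 2-fold higher and 2 lower, and the medians were 1.20 for Oog, 0.50 for Tcl1 (Tcl1 alone) and -0.27 for Fbxw. Without the member with the most reads, the sum was -0.0063 for Oog, 0.20 for Pramef, 0.43 for Obox, -0.14 for Tcl1 and -0.52 for Fbxw. With rows that share windows added, it was 0.23 for Oog, -0.27 for Pramel and 0.11 for Pramef. The Oog value includes Gm13023 and C87977, which share few windows with Oog1. The median of members with 50% or more repeated windows was -2.05 with a pseudocount of 0.1 RPM, -0.76 with 5 RPM, -1.01 with a mean of at least 5 RPM, and -0.69 with 50-base windows, where that of members with under 10% was 0.041. The Tcl1 median was 0.16 with a mean of at least 5 RPM. Of the remaining values, 83 for groups and 163 for single genes stayed within their limits, and 107 for single genes moved beyond their limits without a change of sign. At 40875359 reads in IV 20% O2, genes near 1 RPM such as Pramel5, with 25 reads, have wide intervals.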
